A study of Mus musculus with 6 samples.

Results

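Of the 13886 genes with a deposited expression value in kisspeptin (*Kiss1*) neurons of the medial amygdala (MeA), 72 encode parts of the microtubule system. They were chosen by gene symbol and comprise the alpha, beta and gamma tubulins, the microtubule-associated proteins (MAPs) of the Map1, Map2, Map4, Map6, Map7, Map9 and tau (*Mapt*) families, the end-binding proteins, the stathmins, the kinesins named Kif, and the subunits of cytoplasmic dynein and dynactin. The KissRibo mice were Kiss1Cre+/Rpl22HA+/+ females, in which Cre driven from *Kiss1* places an HA tag on the ribosomal protein Rpl22, so that ribosomes with their mRNA could be pulled down from cells that had expressed *Kiss1*. All females lost their ovaries (OVX) when 8 weeks old, were given estradiol (E2) for 4 days to drive the Cre, and then went 7 days without hormone. Afterwards one group stayed without E2 (OVX, n = 3 libraries) and the other carried a second E2 capsule for 5 days (E2, n = 3 libraries). Each library came from 1 pool of bilateral MeA punches from 4 mice, so a library measures a pool and not a mouse. Expression is given as the authors' log2 CPM, the log2 of a read count scaled to the size of its library, and every difference is E2 minus OVX on that scale.

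Microtubules are hollow polymers of alpha-beta tubulin dimers that start from gamma-tubulin rings and grow and shrink at their plus ends. In neurons they fill axons and dendrites and serve as tracks: kinesins mostly carry cargo toward the plus end, cytoplasmic dynein with its cofactor dynactin carries it back toward the cell body, and neuropeptide vesicles are among the cargo. MAPs bind and stabilize the lattice, end-binding proteins ride on the growing tip, and stathmins bind free tubulin dimers and promote shrinkage.

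The libraries were similar in depth, with a scaled size between 28.1M and 34.2M reads. *Kiss1* itself (ENSMUSG00000115958), the check of the treatment, was at 2.29, 1.82 and 1.13 in the OVX libraries and at 3.72, 3.80 and 3.45 in the E2 libraries (difference 1.91, limma adjusted p = 0.00475). Another entry named *Kiss1* (ENSMUSG00000116158) was at -5.82, -0.65 and 0.10 in OVX and 2.97, 3.18 and 2.65 in E2 libraries. It was not called (limma adjusted p = 0.0942). RNA of cells other than MeA *Kiss1* neurons was present: the summed CPM of 8 oligodendrocyte markers was 1619 to 2487 and that of 8 astrocyte markers 1405 to 1812, beside 3924 to 4187 for 6 neuron markers. The 7 genes listed as markers of excitatory forebrain neurons outside the MeA had a sum of 919 to 1189 in OVX and 708 to 915 in E2 libraries. Of these, *Slc17a7* (Vglut1, mean 9.68 in OVX and 9.26 in E2 libraries) is reported by the paper as expressed in MeA *Kiss1* cells. It was by far the most abundant of the 7, with *Tbr1* next at 6.17 in OVX and 6.12 in E2 libraries. The median difference of the list was -0.423, beside -0.415 for 6 choroid plexus markers. Those summed to 688 to 1077 CPM in OVX and 396 to 1015 CPM in E2 libraries. By far the most abundant of them was *Ttr*, with a mean of 9.59 in OVX and 9.19 in E2 libraries. In such pooled material fewer cells of a type and less RNA per cell cannot be told apart. Long transcripts stood apart in OVX replicate 2, where the 9 longest microtubule genes had a median deviation of 0.26 from their means over the 6 libraries.

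The tubulin isotypes resemble each other so closely that part of their reads cannot be told apart. The last 75 coding bases, the stop codon included, are shown for *Tubb2a*, its near-copy *Tubb2b* and the neuron-specific *Tubb3*, because the tail they encode is where isotypes differ most and because the reads were 75 bases long. Capitals mark bases that differ from, or have no partner in, *Tubb2a*. All are 5′ to 3′ on the coding strand, from GRCm38.
Tubb2a (chr13:34074468-34074542, minus strand): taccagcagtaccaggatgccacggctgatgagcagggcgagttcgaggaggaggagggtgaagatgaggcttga
Tubb2b (chr13:34127471-34127545, minus strand): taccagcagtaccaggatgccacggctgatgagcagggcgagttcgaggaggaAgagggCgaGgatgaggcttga
Tubb3 (chr8:123421608-123421682, plus strand): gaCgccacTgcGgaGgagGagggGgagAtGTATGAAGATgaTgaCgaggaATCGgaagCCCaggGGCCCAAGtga

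*Tubb2a* and *Tubb2b* differed by 3 bases over this stretch, none of which changes the encoded amino acid, whereas *Tubb3* differed from *Tubb2a* by 34. Over whole transcripts, 70.4% of the 75-base stretches of *Tuba1a*, 78.3% of those of *Tuba1b* and 56.7% of those of *Tuba1c* also occurred in another annotated gene, as did 43.2% for *Tubb2a* and 32.2% for *Tubb2b*. For *Tubb4b* it was 40.9%, nearly all in pseudogenes, and for *Tuba4a* 36.3%, in the overlapping gene *Stk16*. No stretch of *Tubb3*, *Tubb4a*, *Tubb5* or *Tubb6* was shared. Levels of the former genes therefore rest on how the authors' quantification divided shared reads, and are uncertain one by one. Among the other genes, the largest parts were shared by *Kif3c* (41.6%, with a long noncoding RNA), *Kif20a* (25.5%, with *Cdc23*), *Stmn1* (20.8%, with a gene model) and *Kif2a* (17.8%). Next came *Kif7* (14.4%) and *Tuba8* (13.5%, with a gene model), and several more genes shared smaller parts. The libraries did not keep the strand.

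The 72 genes were highly expressed as a group, and together they held between 2.70% and 2.84% of all CPM in each of the 6 libraries. Their median rank by mean log2 CPM lay at the 90.4 percentile of all genes, 25 were among the highest 500 genes and 9 among the highest 75. A mean log2 CPM of at least 5 was seen for 55 of them and of at least 8 for 28. At the other end, 3 genes had a mean under 1. Of 11 kinesins of cell division looked for, 4 were listed. The plot of levels by library shows that the spread among genes far exceeded the spread among libraries.

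**Figure D1:**
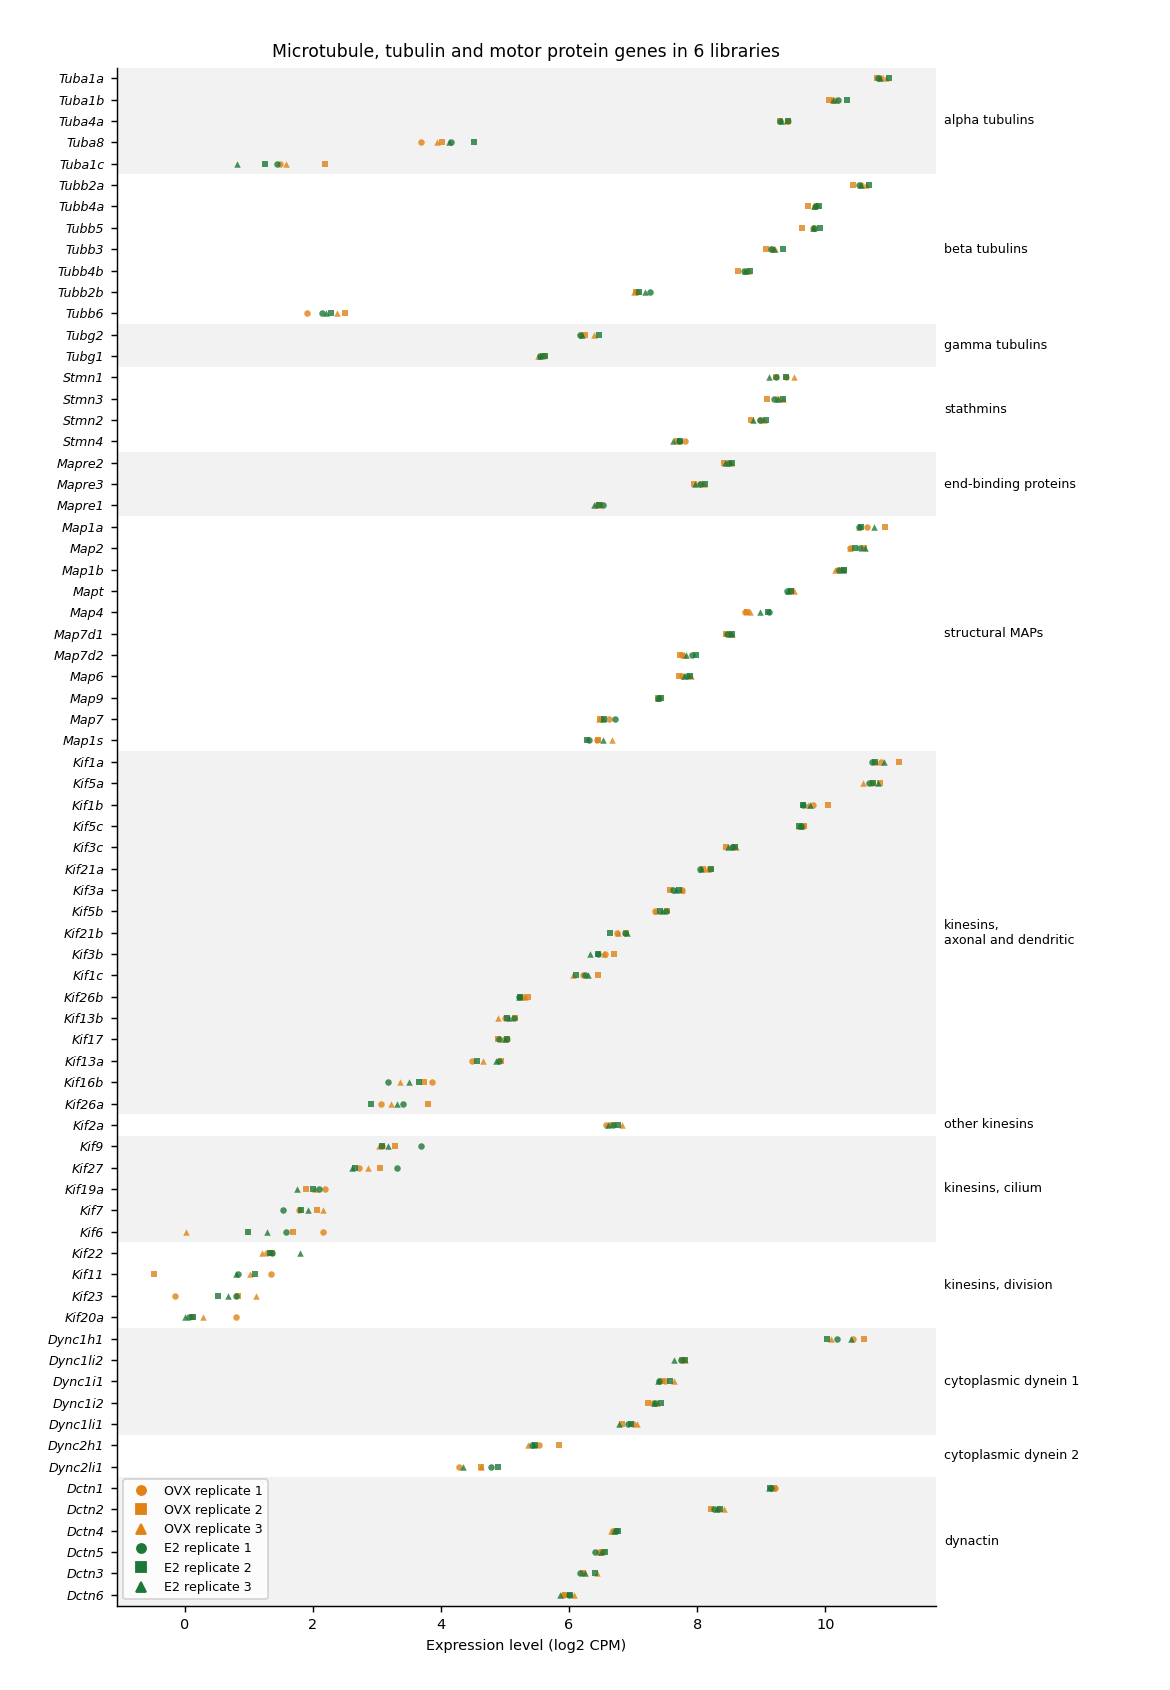
Expression level (log2 CPM, horizontal axis) of each of the 72 genes (rows, grouped by role) in the 3 OVX libraries (orange) and the 3 E2 libraries (green), with a marker shape for each replicate. Most genes show 6 points close together, and the widest spreads are those of genes at low levels.

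Compared per kilobase of transcript, so that genes of unlike length can be ranked, tubulins and stathmins led the list. On the scale of log2 CPM per kilobase of the median transcript length, *Tuba1a*, the main alpha tubulin of young neurons, was highest at 10.03, followed by *Tubb2a* (9.88), *Tuba4a* (9.60), *Map2*, the MAP of dendrites (9.54), and *Stmn1* (9.49). *Tuba1b* stood at 9.37, *Stmn3* at 9.06, *Tubb5* at 9.03 and *Mapt*, which encodes the axonal MAP tau, at 8.93. The fast axonal kinesins *Kif5a* and *Kif1a* had 8.38 and 8.37, and the dynein heavy chain *Dync1h1* 7.37. This order depended on the length used. With the longest transcript, *Tuba4a* and *Map2* were each at 7.85 and *Mapt* at 7.06, while *Tuba1a* (10.03), *Tubb2a* (9.88) and *Tuba1b* (9.37) had the same values.

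*Tuba1a* and *Tuba1b* carried most of the alpha-tubulin message, and no single isotype did so among the beta tubulins. Per kilobase of the longest transcript, *Tuba1a* made up 52.6% to 54.8% of alpha-tubulin CPM over the 6 libraries, *Tuba1b* 32.9% to 35.3%, and *Tuba4a*, whose protein is made without the terminal tyrosine of other alpha tubulins, 11.3% to 12.5% (29.9% to 32.5% with the median length). *Tuba8* made up 0.295% to 0.473% and *Tuba1c* 0.0467% to 0.125%. Of beta-tubulin CPM, *Tubb2a* made up 39.6% to 41.2%, *Tubb4a* 16.9% to 17.9%, *Tubb5* 14.0% to 14.8%, *Tubb3*, the neuron-specific isotype, 13.1% to 13.9%, and *Tubb4b* 11.3% to 11.7%. *Tubb2b* was at 2.49% to 3.03% and *Tubb6* at 0.0912% to 0.150%. The order of isotypes depended on the length used. With the median length, *Tuba4a* (29.9% to 32.5%) stood above *Tuba1b* (25.7% to 27.8%). *Tubb5* (19.2% to 20.2%) and *Tubb3* (16.3% to 17.3%) then stood above *Tubb4a* (14.9% to 15.8%). The shares that follow again use the longest transcript. The composition of the tubulin pool varied little from library to library. The shares of 5 of the 12 isotypes did not overlap between treatments, where the levels of 13.7% of all genes did not overlap. Shares within a family are tied to one another, so a share cannot move alone. In log2 CPM, 2 of the 12 genes had every E2 library above and 1 had every E2 library below. The levels of *Tuba1b*, *Tuba4a* and *Tubb4b* overlapped. *Tuba1b* was at 32.9% to 33.4% in OVX and 33.7% to 35.3% in E2 libraries, and *Tuba8* at 0.295% to 0.388% in OVX and 0.406% to 0.473% in E2 libraries. Lower in all E2 libraries were *Tuba4a* (11.9% to 12.5% in OVX, 11.3% to 11.8% in E2), *Tuba1c* (0.0736% to 0.125% in OVX, 0.0467% to 0.0712% in E2) and *Tubb4b* (11.6% to 11.7% in OVX, 11.3% to 11.5% in E2). These shares were not tested.

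**Figure D2:**
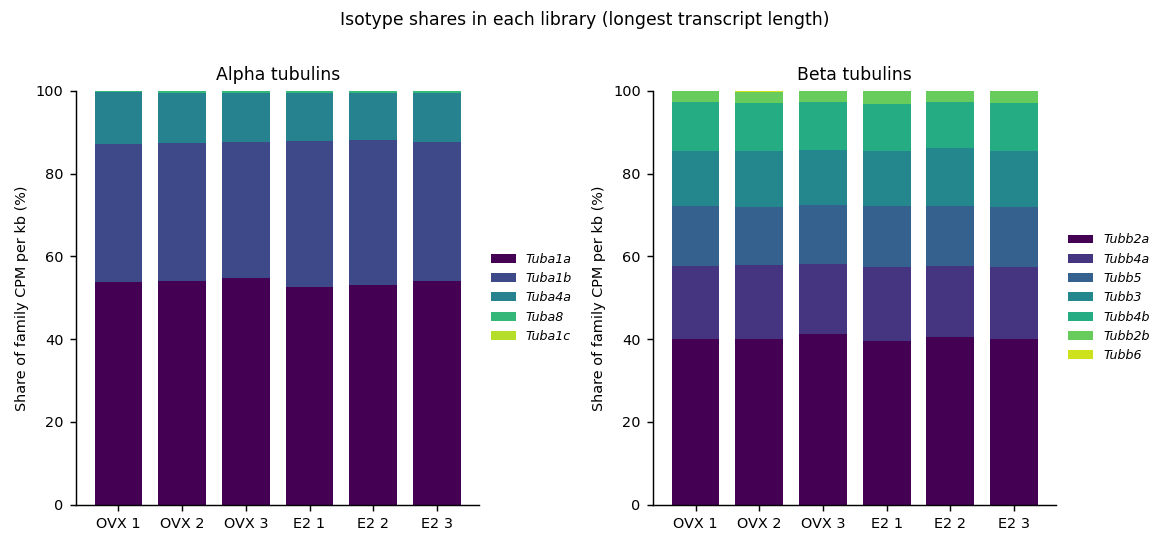
Share of the summed CPM per kilobase (%) that each alpha tubulin (left) and beta tubulin (right) held in each of the 6 libraries, per kilobase of the longest transcript. *Tuba1a* fills 52.6% to 54.8% of every alpha bar and *Tubb2a* between 39.6% and 41.2% of every beta bar, with little change between OVX and E2.

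The paper, with voom weights, listed *Map4* as higher with E2. In the main limma fit, made without those weights, no gene of the 72 passed the test between treatments. None had an adjusted p under 0.05 in limma run over all genes, where 0.288% of the genes tested (40 of 13886) were called, 0.23% higher and 0.0576% lower with E2. At an unadjusted p under 0.05 there were 6 of the 72, or 8.33%, close to the 8.56% of all genes: *Map4*, *Map7d2*, *Tuba8* and *Tubb2b* were higher with E2 and *Kif3b* and *Kif1b* lower. The OVX and E2 libraries did not overlap for 8 genes (11.1%, against 13.7% of all genes), 4 with every E2 library above, as for 6.85% of all genes, and 4 with every E2 library below, as for 6.82%. The median difference was -0.00 over the 72 genes and 0.00 over all genes. The data were precise enough to bound most of the differences: 48 of the 72 genes had a 95% confidence interval that lay within 0.3 of 0 on the log2 scale, that is, within a 1.23-fold change either way. Pools of the same group differed by a median SD of 0.09 for these genes and of 0.13 for all genes, and the p-values measure only this spread between pools.

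**Figure D3:**
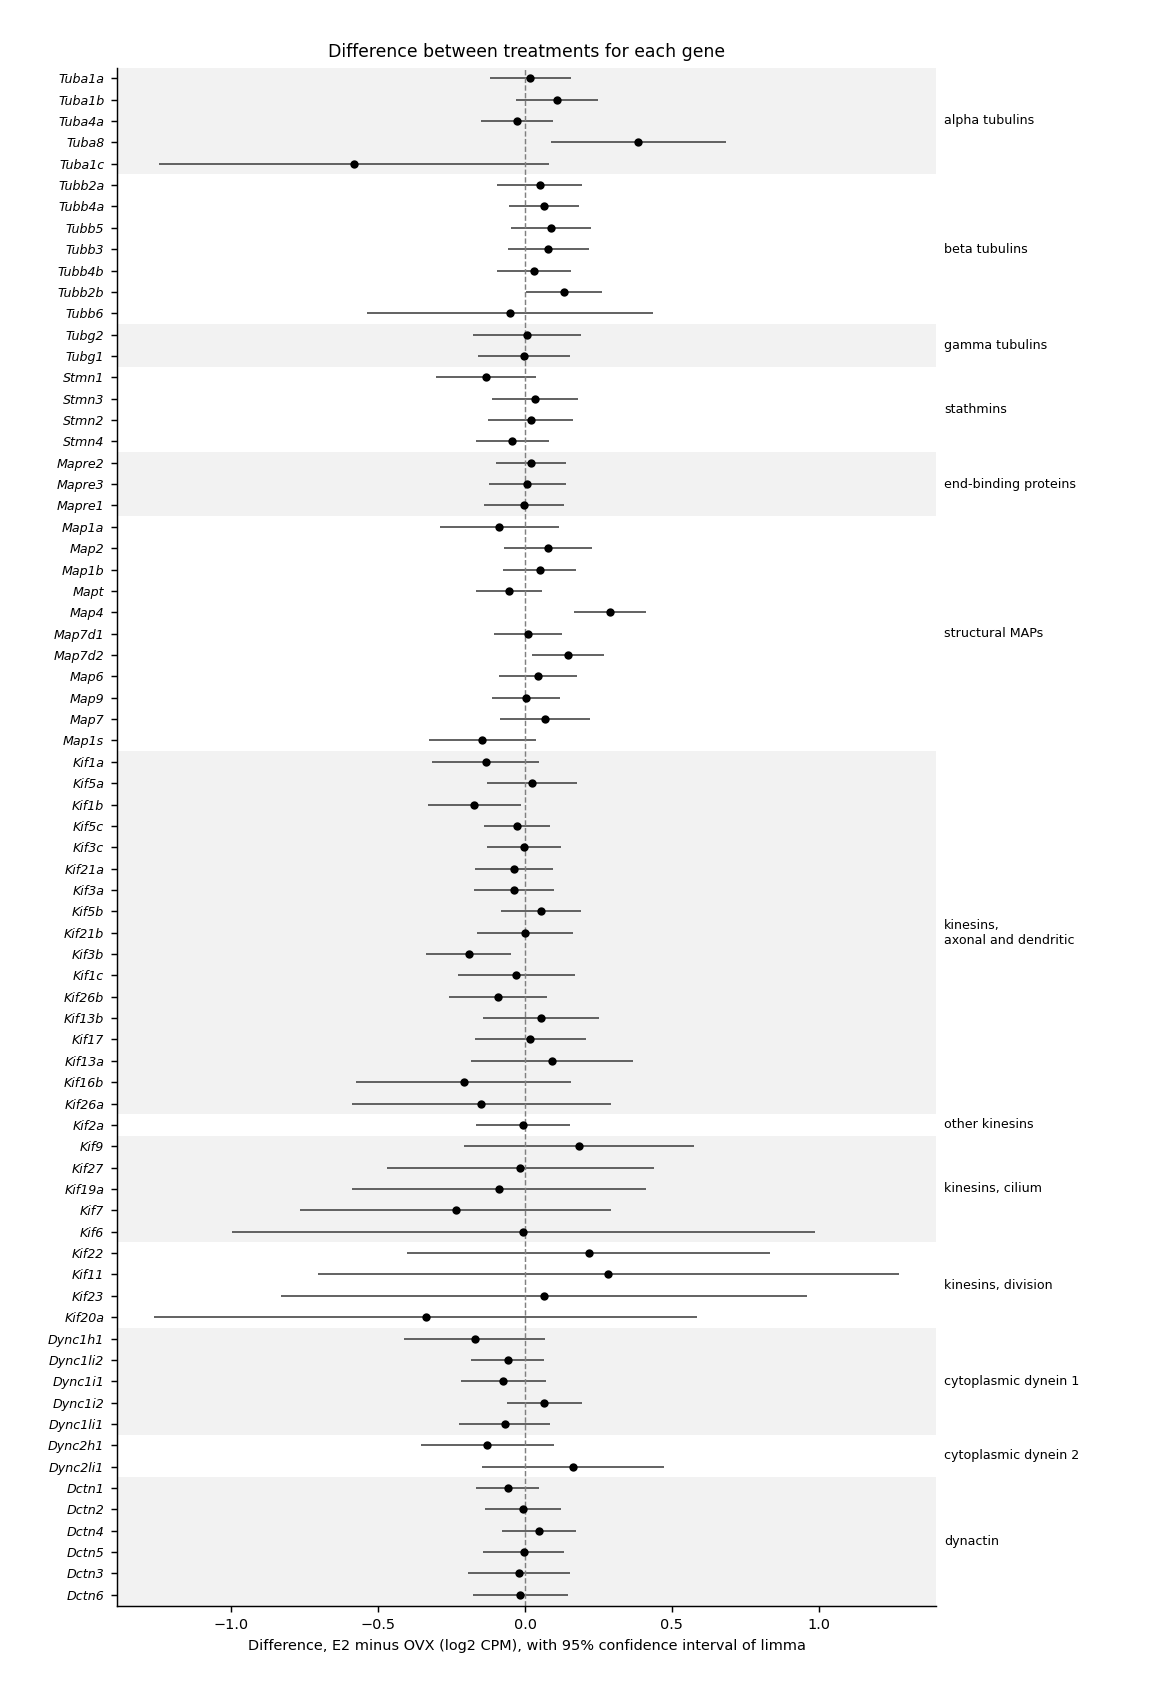
Difference between treatments (E2 minus OVX, log2 CPM) for each of the 72 genes, grouped by role; points are the limma estimates, lines their 95% confidence intervals, and the dashed line marks 0. Intervals are short for the abundant genes and long for the kinesins of cilium and division, and the interval of *Map4* (0.17 to 0.41) lies farthest from 0 among the abundant genes.

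*Map4* (chromosome 9, 109931460 to 110083955, GRCm38) was the gene nearest to a call. It encodes the MAP found in most cell types, neurons and glia alike. The OVX libraries were at 8.74, 8.78 and 8.83 and the E2 libraries at 9.13, 9.10 and 8.98. All E2 libraries lay above all OVX libraries, and E2 replicate 3 was nearest to the OVX group. The difference was 0.29 (SE 0.06, 95% confidence interval 0.17 to 0.41, 1.22-fold, limma adjusted p = 0.0577). It passed the threshold in 6 of 15 alternative fits, among them quantile normalization (adjusted p = 0.0217), voom weights on rebuilt counts (adjusted p = 0.0453) and the fit without E2 replicate 3 (adjusted p = 0.0292). It failed in 9, from log2 of CPM plus 1 (adjusted p = 0.0520) and median centring (adjusted p = 0.0856) to the fit without OVX replicate 1 (adjusted p = 0.321) and the fit without a variance trend (adjusted p = 0.551). The paper, using voom with limma on the same libraries, listed *Map4* as significantly higher with E2 (adjusted p = 0.0453). That is the same value as in the fit here with voom weights on rebuilt counts. Of the other structural MAPs, *Map7d2* (chromosome X, 159414572 to 159498757), of the family that recruits kinesin-1 to microtubules, was at 7.76, 7.73 and 7.80 in OVX and 7.92, 7.98 and 7.83 in E2 libraries. The groups were narrowly apart, with OVX replicate 3 just under E2 replicate 3. Its difference was 0.15 (SE 0.06, limma adjusted p = 0.470).

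The remaining MAPs overlapped between groups. *Map1s*, a short relative of *Map1a* and *Map1b*, had the most negative difference of the 11 structural MAPs, with 6.43, 6.45 and 6.67 in OVX and 6.31, 6.27 and 6.53 in E2 libraries (difference -0.14, limma adjusted p = 0.697), and its groups overlapped. *Map1a*, the most abundant in CPM, ran from 10.53 to 10.94 in OVX and from 10.53 to 10.77 in E2 libraries. *Map2*, *Map1b*, *Mapt*, *Map6*, *Map7*, *Map7d1* and *Map9*, named here after their values were seen, had differences between -0.05 and 0.08. Across the 11 MAPs 8 estimates were above 0 and 3 below (7089 and 6797 over all genes), with a median of 0.04 and 0 called. Estimates were above 0 for 7 of 8 astrocyte and 7 of 8 oligodendrocyte markers with 0 called. Astrocyte markers had a summed CPM of 1405 to 1788 in OVX and 1498 to 1812 in E2 libraries. Oligodendrocyte markers were at a summed CPM of 1619 to 2263 in OVX and 1783 to 2487 in E2 libraries, and the part of either list in the *Map4* value was not tested.

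Among the tubulins, 9 of the 12 alpha and beta genes had an estimate above 0, against 7089 of 13886 over all genes. The median difference of the 12 was 0.06, and 0 were called. *Tuba8* (chromosome 6, 121210696 to 121226854), a low-level and divergent alpha tubulin, was at 3.68, 4.01 and 3.94 in OVX and 4.16, 4.51 and 4.12 in E2 libraries. The groups did not overlap, and E2 replicate 2 was the highest (difference 0.39, SE 0.14, 1.31-fold, limma adjusted p = 0.422). *Tubb2b* (chromosome 13, 34126748 to 34130466), a beta tubulin of developing neurons, was at 7.06, 7.05 and 7.02 in OVX and 7.26, 7.09 and 7.18 in E2 libraries. Again the groups were apart, by less than the spread within the E2 group (difference 0.13, SE 0.06, limma adjusted p = 0.572). *Tubb2b* shares reads with *Tubb2a*, which was at 10.55, 10.43 and 10.63 in OVX and 10.53, 10.68 and 10.56 in E2 libraries.

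*Tuba1c* had the largest difference of all 72 genes, but at a level where few reads were behind it. It was at 1.49, 2.19 and 1.57 in OVX and 1.44, 1.25 and 0.81 in E2 libraries, from 56.4 to 155 rebuilt reads per library. The groups were narrowly apart, and OVX replicate 2 stood above the rest (difference -0.58, SE 0.31, limma adjusted p = 0.651, and -0.36 without that library). Summed with its near-identical relatives *Tuba1a* and *Tuba1b*, which leaves only reads shared with other gene models to be divided, the message came to 2985, 2859 and 3120 CPM in OVX and 3003, 3337 and 2964 CPM in E2 libraries. These ranges overlapped, with E2 replicate 2 highest. For *Tubb2a* and *Tubb2b* together they were 1637, 1513 and 1716 CPM in OVX and 1629, 1775 and 1654 CPM in E2 libraries, again overlapping.

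The other tubulins overlapped between groups. *Tuba1b* had a difference of 0.11 (limma adjusted p = 0.701), *Tubb5* of 0.09, *Tubb3* of 0.08 and *Tubb4a* of 0.06, and *Tuba1a*, *Tuba4a*, *Tubb4b* and *Tubb6* lay between -0.05 and 0.03. Taken as deviations from their 6-library means, the median of the 12 alpha and beta tubulins was -0.08 in OVX replicate 2 and 0.09 in E2 replicate 2. The gamma tubulins *Tubg1* and *Tubg2*, which template new microtubules, were at 5.57 and 6.28 with differences of -0.00 and 0.01.

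All stathmins and end-binding proteins overlapped between groups. *Stmn1*, the best-known dimer-binding stathmin, was at 9.39, 9.23 and 9.51 in OVX and 9.23, 9.38 and 9.12 in E2 libraries (difference -0.13, limma adjusted p = 0.701), with overlap. The axonal growth and repair gene *Stmn2* ran from 8.84 to 9.05 in OVX and from 8.88 to 9.07 in E2 libraries. *Stmn3* and *Stmn4* had differences of 0.03 and -0.04. Of the end-binding proteins, *Mapre2* had the highest mean (8.48), then *Mapre3* (8.04), the neuronal form, and *Mapre1* (6.46). Their differences were between -0.00 and 0.02, with 95% confidence intervals between -0.14 and 0.14.

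**Figure D4:**
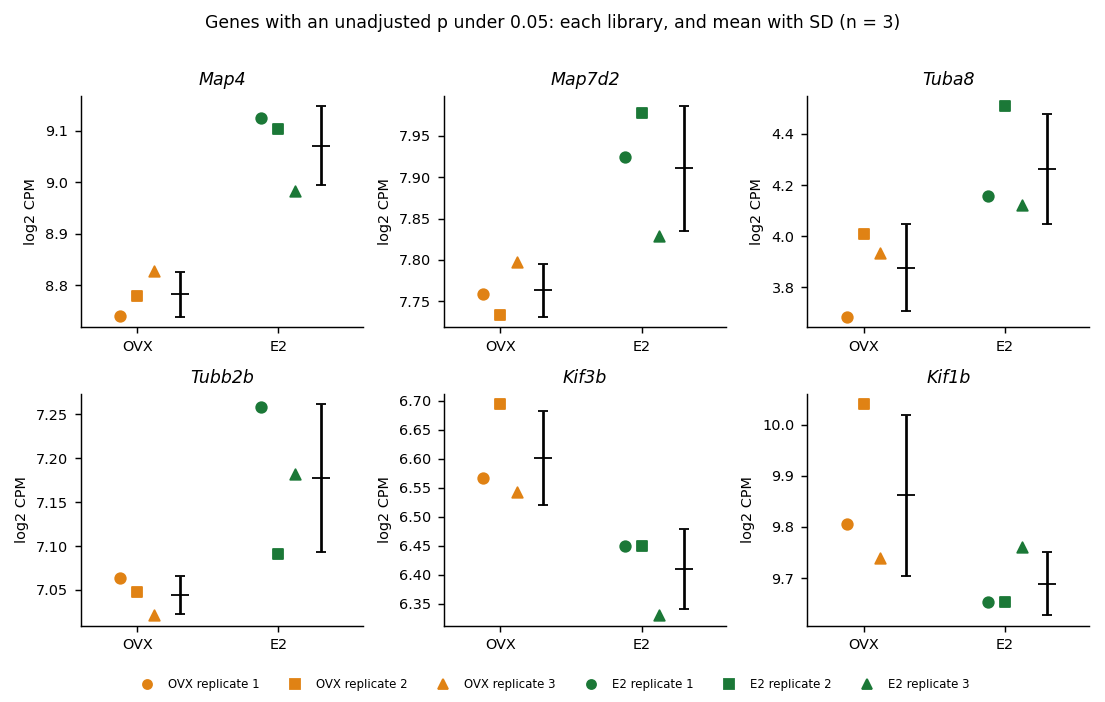
Expression (log2 CPM, axes that do not start at 0) of the 6 genes with an unadjusted p under 0.05, per library (orange OVX, green E2, shapes for replicates) with the mean and SD of each group (n = 3). *Kif1b* is the only 1 of the 6 whose groups overlap, with OVX replicate 3 at 9.74 and E2 replicate 3 at 9.76.

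Of the 27 kinesins, 18 had an estimate below 0, against 6797 of 13886 over all genes. Of these 18, 12 were among the 17 kinesins of axonal and dendritic transport. The median was -0.02 over all kinesins and -0.03 over the transport kinesins. None was called, and 2 transport kinesins had an unadjusted p under 0.05. *Kif3b* (chromosome 2, 153291413 to 153333390), a motor subunit of kinesin-2, which serves both cilia and dendritic cargo, was at 6.57, 6.69 and 6.54 in OVX and 6.45, 6.45 and 6.33 in E2 libraries. All E2 libraries lay below all OVX libraries (difference -0.19, SE 0.07, 0.876-fold, limma adjusted p = 0.413). Its partner *Kif3a*, which forms the same motor, had a difference of -0.04, and the alternative partner *Kif3c* of -0.00. The difference of *Kif3b* ran from -0.22 to -0.15 over all alternatives, and its adjusted p from 0.371 to 0.691.

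*Kif1b* (chromosome 4, 149176319 to 149307693), a kinesin-3 that carries mitochondria and synaptic vesicle precursors, was at 9.81, 10.04 and 9.74 in OVX and 9.65, 9.65 and 9.76 in E2 libraries. The OVX group was wide because of replicate 2, and the groups overlapped (difference -0.17, SE 0.07, limma adjusted p = 0.535). Its relative *Kif1a*, the carrier of dense-core vesicles that hold neuropeptides, was likewise highest in OVX replicate 2, at 10.88, 11.15 and 10.80 in OVX and 10.73, 10.78 and 10.91 in E2 libraries (difference -0.13, limma adjusted p = 0.728). Without OVX replicate 2 the difference was -0.08 for *Kif1b* and -0.03 for *Kif1a*, and without OVX replicate 3 that of *Kif1a* was -0.21. The kinesin-1 heavy chains, which move many axonal cargoes and were named after their values were seen, were closer to 0, with differences of 0.02 for *Kif5a*, 0.05 for *Kif5b* and -0.03 for *Kif5c*. *Kif26b*, an atypical kinesin that was also named after its values were seen, had E2 libraries between 5.22 and 5.24 and OVX libraries between 5.27 and 5.36. These did not overlap, at a difference of -0.09 (limma adjusted p = 0.805). *Kif2a*, which takes microtubule ends apart, was at a mean of 6.69 with a difference of -0.01. At the low end, *Kif16b* had a difference of -0.21 and *Kif26a* of -0.15, both with overlap. Forebrain excitatory markers were lower with E2 for 7 of 7 genes and choroid plexus markers for 6 of 6, with 0 called. The part of either list in the lower kinesin values was not tested.

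Dynein and dynactin, the motor and cofactor of retrograde transport, were also mostly a little below 0 and never called. *Dync1h1*, the heavy chain that holds the motor domain, was at 10.43, 10.60 and 10.10 in OVX and 10.18, 10.03 and 10.40 in E2 libraries (difference -0.17, SE 0.11, limma adjusted p = 0.742). The groups interleaved although the gene is abundant, and the difference was -0.06 without OVX replicate 2, -0.31 without OVX replicate 3, -0.09 without E2 replicate 2 and -0.27 without E2 replicate 3. Its intermediate and light intermediate chains, which link the motor to cargo, had differences from -0.07 to 0.07, with *Dync1li1* the least abundant at a mean of 6.93. *Dctn1*, the large dynactin subunit that binds microtubules, had the smallest within-group SD of all 72 genes, with 9.21, 9.21 and 9.19 in OVX and 9.16, 9.14 and 9.13 in E2 libraries. All E2 libraries lay below all OVX libraries. The within-group SD was 0.01 and the difference -0.06 (SE 0.05, limma adjusted p = 0.815), where limma moderates a small SD toward that of other genes. The other 5 dynactin subunits, down to *Dctn6* at a mean of 5.97, had differences between -0.02 and 0.05. Dynein 2, the retrograde motor of cilia, had *Dync2h1* at -0.13 and *Dync2li1* at 0.16, both with overlap.

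Kinesins of cilia and of cell division were scarce and noisy. *Kif9*, of the motile cilium, was at 3.08, 3.28 and 3.02 in OVX and 3.69, 3.09 and 3.17 in E2 libraries. *Kif27*, related to the hedgehog regulator *Kif7*, was at 2.72, 3.05 and 2.86 in OVX and 3.32, 2.66 and 2.60 in E2 libraries. Both were highest in E2 replicate 1, where the summed CPM of the 6 listed ependymal and motile cilia markers was also highest, at 50.5 against 25.9 to 38.3 in the other 5 libraries, and their part was not tested. The remaining listed kinesins of cilia were not highest in that library. *Kif6* and *Kif19a* (2.20) were highest in OVX replicate 1, and *Kif7* was lowest in E2 replicate 1 (1.53). The levels of *Kif6* were 2.16, 1.68 and 0.02 in OVX and 1.58, 0.99 and 1.28 in E2 libraries. The marker sums of the same libraries were 38.3, 37.0 and 26.8 in OVX and 50.5, 25.9 and 28.5 in E2. *Kif6* spread the most of the genes with a mean of at least 1, from 0.02 in OVX replicate 3 to 2.16 in OVX replicate 1, on 28.0 to 126 rebuilt reads. Of the division kinesins, *Kif22* was at 1.20 to 1.36 in OVX and 1.32 to 1.80 in E2 libraries, and *Kif20a* had a mean of 0.23. Only 3 of 8 markers of dividing cells were listed, with a summed CPM of 3.93 to 5.77.

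Values of the long genes varied with single libraries. In OVX replicate 2, all 9 of the genes with a longest transcript over 8 kb (*Kif1a*, *Kif1b*, *Kif13b*, *Kif21b*, *Kif26b*, *Map1a*, *Map1b*, *Dync1h1* and *Dync2h1*) lay above their 6-library mean, with a median deviation of 0.26, and 8 of the 9 had their highest value there. Their median deviation was 0.00 and -0.09 in OVX replicates 1 and 3 and -0.09, -0.09 and 0.04 in E2 replicates 1, 2 and 3. The 17 genes with a transcript of at most 2 kb, mostly tubulins, stathmins and dynactin subunits, went the other way, at -0.06 in OVX replicate 2 and 0.08 in E2 replicate 2, and 16 of the 17 lay above their mean in the latter library.

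Other genes showed this too, but less. For all 845 genes over 8 kb the median deviation in OVX replicate 2 was 0.06, and for the 83 other genes over 8 kb with a mean log2 CPM of at least 8 it was 0.09, beside 0.27 for the 5 long microtubule genes at that level. Spearman's rho between deviation and transcript length, a description across genes that share a library, was 0.55 in OVX replicate 2, -0.49 in OVX replicate 3 and -0.54 in E2 replicate 2 over 69 microtubule genes with a mean of at least 1, and 0.20, -0.06 and -0.24 over 12869 genes. After a smooth trend of deviation on length was removed from each library, the median of the 9 long genes in OVX replicate 2 was 0.21 and in E2 replicate 2 it was -0.02, and that of the 17 short genes was -0.02 in OVX replicate 2 and 0.04 in E2 replicate 2. OVX replicate 2 also had the highest summed CPM of 7 endothelial and mural markers (296, against 158 to 244 elsewhere) and of 6 choroid plexus markers (1077, against 396 to 1015), and their part in this pattern was not tested.

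**Figure D5:**
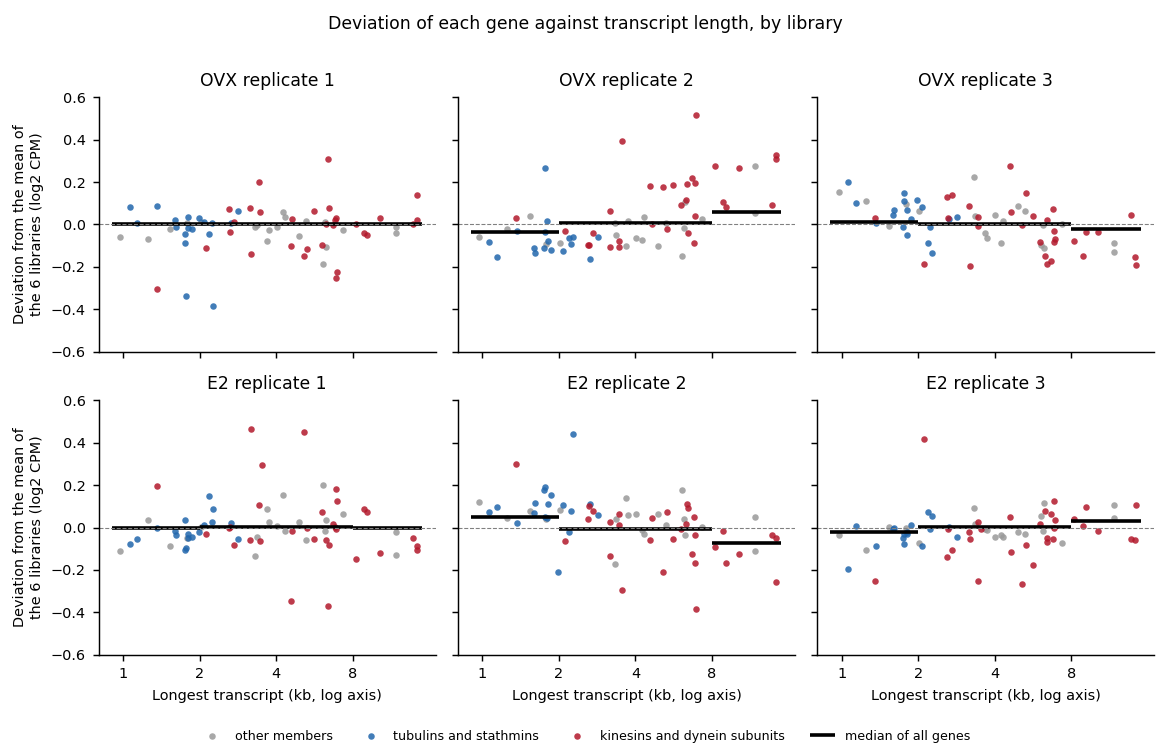
Deviation of each of the 69 genes with a mean of at least 1 from its mean over the 6 libraries (log2 CPM, vertical axis) against the length of its longest transcript (kb, log axis), with 1 panel per library; blue points are tubulins and stathmins, red points kinesins and dynein subunits, grey points the rest, and black bars the median of all genes in 3 length classes. Long genes sit high in OVX replicate 2 and low in E2 replicate 2, and 4 points lie outside the axis of 0.6 either way.

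Genes outside the 72 that act on microtubules were listed as well. Of 140 symbols in 8 lists of tubulin-modifying enzymes, folding cofactors, severing enzymes, tip proteins, nucleation factors, dynein regulators, kinesin partners and other lattice binders, 134 were in the table, and 0 were called. At an unadjusted p under 0.05, 4 of the 134 were higher and 4 lower, smaller shares than the 4.21% and 4.34% of all genes. The smallest p-values in the lower direction belonged to *Vash1*, which removes the terminal tyrosine of alpha tubulin (difference -0.44, limma adjusted p = 0.308), *Trak2*, an adaptor between kinesin and mitochondria (-0.22, limma adjusted p = 0.311), and *Nav3*, a microtubule-binding navigator protein (-0.28, limma adjusted p = 0.316). In the higher direction they belonged to *Agbl5*, a deglutamylase (0.31, limma adjusted p = 0.429), *Capza1*, a capping subunit shared with dynactin (0.24, limma adjusted p = 0.422), and *Dcx*, the doublecortin of migrating neurons (0.30, limma adjusted p = 0.491). *Tbcd*, a tubulin folding cofactor, was at -0.16 (limma adjusted p = 0.583). The other such genes reported here had an unadjusted p over 0.05: *Cdk5rap2* (0.23), *Fignl2* (0.18), *Mzt2* (0.17), *Tbce* (0.10) and *Arl8a* (0.10) had estimates above 0, and *Macf1* (-0.23), *Dynll1* (-0.14) and *Tubgcp2* (-0.12) below. Over all lists 79 of 134 estimates were below 0, against 6797 of 13886 over all genes. Among the 79 were 16 of 22 kinesin partners and other kinesins, 15 of 21 other lattice binders and 12 of 15 tip proteins. The medians of these lists were -0.04, -0.04 and -0.01.

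Estrogen receptors bind DNA at pairs of a short motif, and promoter sequence was searched for it as a description. RefSeq (GRCm38.p6) windows of 300 bases around a gene's start were at hand for 53 of the 72 genes. The single motif, the letters GGTCA read on either strand, occurred in 27 of their 64 windows, or 42.2%, and in 40.5% of all 32851 windows. The full palindrome, GGTCA and TGACC with 3 bases of any kind between them, which holds the single motif, was in 0 of the 64 windows and in 0.07% of all. A match of these letters is not a binding site.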

How the data were processed

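RNA-seq was made from MeA IP samples of KissRibo females, with 3 OVX and 3 E2 libraries. The deposited values were log2 CPM. The authors made these with FastQC 0.11.8, Trimmomatic 0.38, STAR 2.6.0a and RSEM on GRCm38, kept protein-coding genes with a mean CPM over 1 in a treatment group, and applied TMM scaling and voom, which adds 0.5 to each count. The libraries were unstranded and reads were 75 bases long, so RSEM divided reads shared between genes and antisense reads cannot be told apart. A second deposited table holds the authors' own log2 fold changes and p-values and was not used.

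The comparison was made with limma 3.58.1 in R 4.3.3 on all 13886 genes, with treatment as the only term and a mean-variance trend, since the values per library were log2 CPM and not counts. Tests were 2-sided with Benjamini-Hochberg adjustment over all genes and a threshold of 0.05, and the pipeline was tested on simulated data. An exact permutation test of 3 against 3 libraries cannot go below 0.1 and was not used. Library sizes and reads were rebuilt from each library's smallest log2 CPM, read as 0 counts with 0.5 added. No interval was computed from them. Gene positions, transcript lengths and sequences came from the GENCODE annotation of GRCm38, another release than the authors' on the same assembly, in which all 72 genes were found.

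The named genes were all tubulins, stathmins and end-binding proteins, the 8 with the smallest p in each direction, the highest and lowest of each role, the 5 with the largest spread, and the first of each pathway list in each direction, and others were named after their values were seen. A gene that the rule picked is left out of the text. The members and all lists were chosen with earlier results of these data known. Alternatives were a replicate block, robust empirical Bayes, no trend, voom weights on rebuilt counts, quantile normalization, median centring, only genes with a mean log2 CPM of 1 or more, a log2 scale with 1 added to the CPM, leaving out each library, the longest transcript length, and a length correction.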

Additional observations from a re-analysis of the deposited data

How the results depend on the processing

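With 3 pools per group and a median SE of 0.07, a difference of 0.29 (*Map4*) was at the edge of a call, so smaller ones could not be called at this spread. No gene was called lower with E2 in any fit. The count called higher was 1 (*Map4*) with voom weights, quantile normalization, a mean log2 CPM of at least 1, robust empirical Bayes and the length correction, which was chosen after seeing the data, and 0 to 1 with a library left out (1 without E2 replicate 3). At an unadjusted p under 0.05, the 4 higher genes became 2 without a trend and 1 to 5 with a library left out (1 without OVX replicate 1), and the 2 lower genes became 1 without a trend, 1 with quantile normalization and 1 to 5 with a library left out (5 without OVX replicate 3). Non-overlapping genes went from 4 above to as many as 11 without OVX replicate 2 (range 4 to 11), and from 4 below to between 5 and 10, in part because groups of 2 overlap less. The median difference stayed between -0.02 and 0.01. Causes of the other shifts were not tested. Deviations of libraries with equal replicate numbers correlated at -0.02, -0.12 and -0.08. Unequal numbers were not compared, so whether the numbers pair the libraries cannot be told. With the replicate block, 2 genes were higher and 1 lower at an unadjusted p under 0.05, and 0 were called. Over 16 named genes and 15 fits, 0 of 240 differences reversed and 6 (all *Map4*) passed the threshold. These 16 were the 8 genes with the smallest p in each direction of the main fit. Every fit reused the same libraries, so the kept signs say little. Sizes moved with a library left out, for *Kif1a* from -0.21 to -0.03, *Kif16b* from -0.35 to -0.08, *Dync1h1* from -0.31 to -0.06 and *Tubb3* from 0.02 to 0.12. Per kilobase of the longest transcript, *Kif5a* was at 8.08 in place of 8.38.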
